A study of Mus musculus with 6 samples.

Results

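The 34 genes described here encode integrins and other receptors by which cells bind matrix or other cells. The secreted integrin-like protein Itgbl1 is counted with the receptors below. The 34 genes were taken by symbol from the 22162 genes of the table, of which 1698 carry no symbol. Taken were every integrin alpha and beta subunit, the integrin-like gene Itgbl1, the hyaluronan receptor Cd44, the syndecans Sdc1 to Sdc4, and the discoidin domain receptors Ddr1 and Ddr2. The choice used no measured value. It gave 18 alpha subunits, 8 beta subunits, Itgbl1, Cd44, 4 syndecans and 2 discoidin domain receptors.

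Integrins are heterodimers of an alpha and a beta subunit that bind matrix proteins outside the cell and, through talin and kindlin at the beta tail, actin inside it. The alpha subunit largely sets the ligand, so that some dimers bind collagen, some laminin and some the RGD sequence of fibronectin and vitronectin. Syndecans bind matrix through heparan sulfate chains, CD44 binds hyaluronan, and the discoidin domain receptors are tyrosine kinases switched on by collagen.

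Poly(A) RNA was sequenced from mouse skin fibroblasts (MSFs) on the FVB/N background carrying the FASST alleles, which the study's methods describe isolating from the dorsal skin of a female mouse. In these mice a tamoxifen (TAM)-inducible Cre recombinase is driven by the pro-alpha 2(I) collagen promoter and removes a stop cassette, so that p27Kip1 and GFP are expressed from the ROSA26 locus. The 3 samples labelled EtOH received the ethanol vehicle and are called non-senescent, and the 3 labelled TAM received 10 µM TAM for 48 h and are called senescent. Both groups carried the same alleles and were grown at 3% oxygen, and no TAM-treated cells without the p27Kip1 allele were analysed here, so that the drug and the allele cannot be told apart. Only those cells in which Cre acts can activate the alleles, and the samples were not sorted for them as far as the sources say. Nor do they say whether the 3 replicates were separate cultures or animals. The p-values therefore measure only the spread between these samples.

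Values are normalized counts as deposited, whose sums ran from 14952367 to 17314953 per library. The number of reads behind them is unknown. Cdkn1b, the mouse gene for p27Kip1, was at 1427, 3074 and 1853 in EtOH replicates 1, 2 and 3 and at 1699, 1520 and 1630 in TAM replicates 1, 2 and 3, which overlap. It is not stated whether transgene reads count towards it, and directions below are for the libraries as labelled. Replicate 2 stood apart in both groups, with limma quality weights of 0.292 (EtOH) and 0.288 (TAM) against 0.931 to 4.06 in the other 4 libraries. The fibroblast markers summed to between 1531770 and 1680760 normalized counts in EtOH and between 684994 and 1127540 in TAM. Most of this sum came from Col1a1, Col1a2 and Col3a1. Thy1 (1.36) and Pdgfrb (0.09) had positive log2 fold changes, TAM over EtOH. Those of the other fibroblast markers were negative, from -2.38 (Lum) to -0.16 (Vim). In TAM replicate 2 the smooth muscle genes Cnn1 (6645 normalized counts, against 522.71 to 1749 elsewhere) and Myh11 (1568, against 94.4 to 523) and the skeletal muscle gene Acta1 (1404, against 21.1 to 56.2) were at their highest.

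Of the 34 receptor genes, 27 reached 1 c.p.m. (16.2 normalized counts) in at least 3 of the 6 libraries and were tested. None of the 27 differed between TAM and EtOH at an adjusted p under 0.05 in limma's test across all 11877 genes tested, against 29 of all genes (0.244%). Without adjustment 5 of the 27 (18.5%) passed 0.05, against 13.4% of all genes: Itga3, Itga9, Sdc3 and Ddr1 were higher in TAM (6.67% of all genes) and Itga2b was lower (6.7%). The 27 log2 fold changes (TAM over EtOH, on normalized counts + 1) had a median of 0.385, and 19 were above 0, while the median of all genes tested was -0.03. In 4 of the 27 (14.8%) the groups did not overlap, against 20.6% of all genes: Itga3, Itga9 and Ddr1 lay higher in TAM (9.19% of all genes) and Itga2b lower (11.4%). With 3 against 3 libraries an exact two-sided permutation test of a single gene cannot give a p below 0.1. In bulk RNA fewer cells expressing a gene and less RNA per cell cannot be told apart.

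Same-numbered EtOH and TAM libraries deviated together, and a fit with the replicate number as a block gave a smaller standard error for 22 of the 27 receptors. The median standard error was 0.41 without the block and 0.29 with it. The blocked fit also called 0 of the 27, against 192 of all genes (1.62%, with 1.0% higher and 0.615% lower). Before adjustment it had 8 receptors higher and 2 lower, against 8.64% and 8.32% of all genes. In 11 receptors all 3 pairs were higher in TAM and in 2 all 3 were lower, together 48.1%, against 18.3%, 23.6% and together 41.9% of all genes. With libraries weighted by quality 4 receptors were called, Itga2 and Itga9 higher and Itga4 and Itgb2 lower, against 6.25% of all genes (3.25% higher and 3.0% lower). With replicate 2 left out of both groups, an alternative chosen after seeing the data, none was called (0.0781% of all genes). With the block as well 6 were called, against 7.42% of all genes (4.1% higher and 3.32% lower), namely Itga2, Itga9 and Sdc3 higher and Itga4, Itgbl1 and Sdc2 lower.

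**Figure D1:**
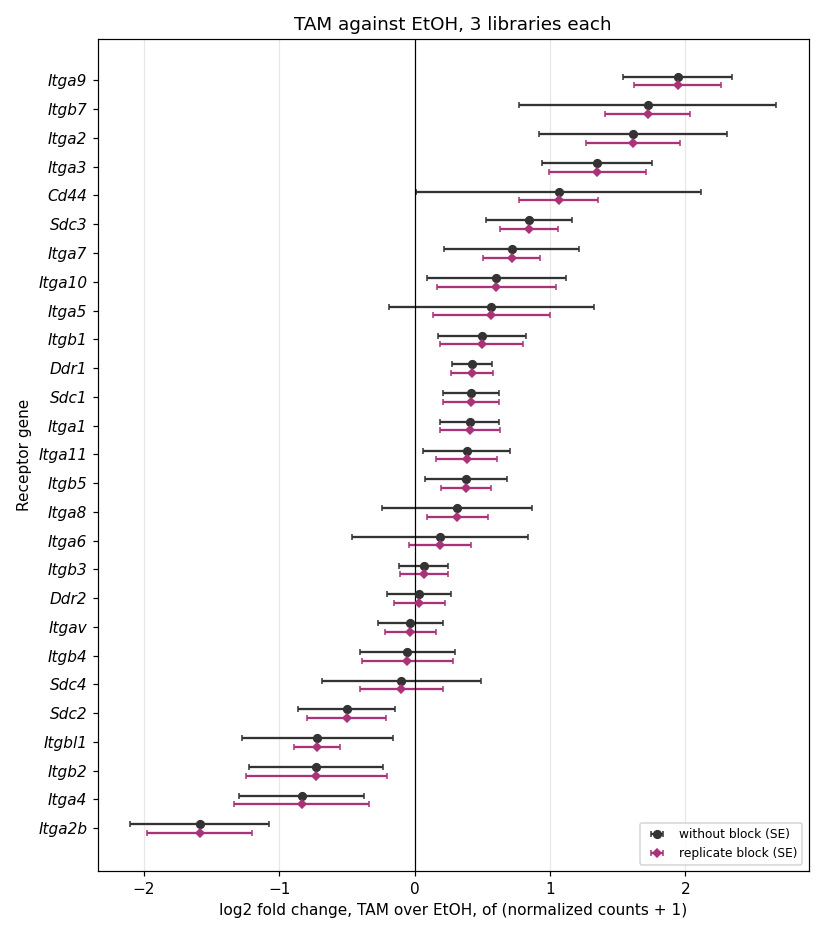
Log2 fold change of each of the 27 tested receptors (x axis, TAM over EtOH; y axis, genes ordered by fold change), with bars of 1 standard error from the fit without (circles) and with (diamonds) the replicate block. Itga9 is highest at 1.94 and Itga2b lowest at -1.59, and the bars of Itgb7 and Cd44 shorten most under the block.

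On a scale that can be compared between genes, normalized counts per kb of annotated exon, these cells were rich in a few receptors. Itgb1, the common beta subunit of most matrix-binding integrins, was the highest of all in EtOH (3891 ± 307 per kb, SD, n = 3). After it came Sdc2 (2356 ± 1007), Itgb5 (1724 ± 489), Itga11 (1614 ± 399), Ddr2 (1353 ± 263), Itga5 (1153 ± 525) and Itgbl1 (1079 ± 648). The range of Itgb1 in EtOH lay above that of each of these, while neighbours from Sdc2 to Itgbl1 did not differ beyond their spread. The leading receptors thus bind fibrillar collagen (Itga11 and Ddr2), fibronectin (Itga5) and vitronectin (Itgb5).

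Among alpha subunits Itga11 made up 43.9% ± 6.0 (SD, n = 3) of the summed level per kb in EtOH and 43.3% ± 23.0 in TAM, and Itga5 30.6% ± 9.6 and 36.4% ± 28.5. The means hide replicate 2, where Itga5 exceeded Itga11 in both groups. There Itga5 held 41.6% and Itga11 37.5% in EtOH, and 68.6% and 18.3% in TAM. In replicates 1 and 3 Itga11 held 49.5% and 44.6% in EtOH and 63.5% and 48.2% in TAM. Itga9 held at most 0.185% of the alpha sum in an EtOH library and at least 0.332% in each TAM library, a minor subunit in both. Among beta subunits Itgb1 held 67.8% ± 5.4 in EtOH and 68.8% ± 11.9 in TAM, and Itgb5 29.5% ± 5.9 and 29.0% ± 11.9. Sdc1 held 14.1% to 16.4% of the syndecan sum in EtOH and 21.4% to 23.7% in TAM, which do not overlap. Its counts themselves overlap between groups, and 42.8% of its transcript matches elsewhere in the genome. Other shares were lower in TAM without overlap. They were those of Itga2b (0.704% to 2.44% in EtOH, 0.0869% to 0.616% in TAM), Itga4 (0.295% to 1.09%, 0.148% to 0.266%), Itgb2 (0.185% to 0.352%, 0.0782% to 0.155%) and, narrowly, Itgb4. Shares of a sum move together, and no test was made of them. They use the full annotated exon length, though the deposited loci of Itgav and Itga6 are shorter. Over the exon bases of those loci, Itgav would be at 721 per kb in EtOH rather than 305, and Itga6 at 152 rather than 18.5. This would lower the shares of the other alpha subunits.

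**Figure D2:**
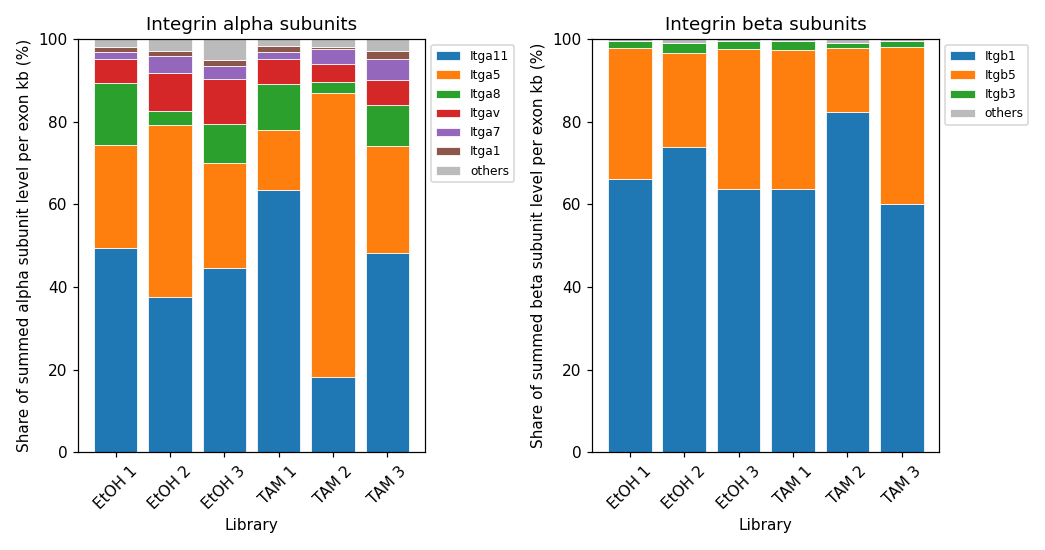
Share of each subunit in the summed level per exon kb (y axis, %) of alpha (left) and beta (right) subunits in each library (x axis). Full annotated exon lengths are used, also for Itgav and Itga6, whose deposited loci are shorter. Itga11 is the main alpha subunit in replicates 1 and 3 of both groups. In replicate 2 Itga5 leads, at 41.6% in EtOH and 68.6% in TAM. Itgb1 is the main beta subunit in all 6.

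Itga9 pairs with Itgb1 to bind tenascin-C, osteopontin and VCAM-1, and it showed the largest change of the receptors. Its normalized counts were 58.4, 47.6 and 22.9 in EtOH replicates 1, 2 and 3 and 141, 208 and 131 in TAM replicates 1, 2 and 3. All TAM libraries lay above all EtOH libraries, a log2 fold change of 1.94 (SE 0.40, limma adjusted p = 0.131), and the change was 1.55 to 2.21 when any 1 library was left out. It passed the threshold with library weights (adjusted p = 0.0326) and with the block and without replicate 2 (adjusted p = 0.0419), while its adjusted p over all alternatives ran from 0.0326 to 0.406. The gene (ENSMUSG00000039115) lies on chromosome 9 of mm9, from 118515808 to 118810121 on the plus strand, with 32 exon blocks. At 5.6 per kb in EtOH and 20.8 in TAM it was far below Itga5 or Itga11.

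Of its known ligands, Tnc, Spp1 and Vcam1 are given here from the same libraries. Tnc (tenascin-C) was at 5644, 30603 and 2373 normalized counts in EtOH replicates 1, 2 and 3 and at 41697, 142976 and 25789 in TAM replicates 1, 2 and 3, and was called with the block (log2 fold change 2.85, adjusted p = 0.0285, 0.290 without it). Spp1 (osteopontin) was at 157.66, 1016 and 65.4 in EtOH and 963, 2714 and 534 in TAM, and was also called with the block (2.34, adjusted p = 0.0481, 0.384 without it). Vcam1 was at 672, 602 and 717 in EtOH and 1055, 1801 and 1131 in TAM (0.96, SE 0.24, adjusted p = 0.182) and did not overlap. Itga9, Tnc, Spp1 and Vcam1 were each higher in TAM in all 3 pairs, as were 18.3% of all genes. Vcam1 was picked out after its values were seen.

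Itga4, the subunit closest to Itga9 in ligands, went the other way in replicates 1 and 3. It was at 319, 172 and 426 in EtOH replicates 1, 2 and 3 and at 100.13, 275 and 149 in TAM replicates 1, 2 and 3 (log2 fold change -0.83, SE 0.46, adjusted p = 0.493). The groups overlap through replicate 2, where TAM was higher than EtOH. Without replicate 2 the change was -1.59 and was called with the block (adjusted p = 0.0100), and its adjusted p over all alternatives ran from 0.0100 to 0.810. Exons of Cerkl on the other strand overlap 8.0% of Itga4, and the strand setting of the counting is not stated.

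The 3 laminin-binding alpha subunits had positive fold changes, from 0.19 to 1.35. Itga3, which with Itgb1 binds the laminins of basement membranes, was at 27.9, 25.7 and 61.2 in EtOH replicates 1, 2 and 3 and at 71.7, 111 and 96.4 in TAM replicates 1, 2 and 3. The TAM libraries lay above the EtOH libraries (1.35, SE 0.41, adjusted p = 0.240), and the change stayed between 1.13 and 1.74 when 1 library was left out. It is a low gene, at 6.7 per kb in EtOH, and was not tested under the stricter filter. Itga7, the laminin receptor of muscle, was at 295, 754 and 393 in EtOH and 376, 1196 and 870.01 in TAM, higher in each pair but overlapping (0.72, SE 0.50, adjusted p = 0.588, and 0.36 to 1.20 when 1 library was left out, lowest without TAM replicate 2). Beside it, 4 of 5 tested smooth muscle and pericyte markers were higher in TAM at unadjusted p under 0.05 (6.67% of all genes). That list summed to 807 to 1174 normalized counts in EtOH and 1856 to 8603 in TAM. The part of these markers in the level of Itga7 was not tested.

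Itga6, the other laminin receptor, followed the replicate number. It was at 74.0, 292 and 134 in EtOH and 98.8, 378 and 115 in TAM, highest in replicate 2 of both groups. Replicate number took 95.8% of its sum of squares and treatment 1.3%, and without TAM replicate 2 its fold change turned from 0.19 to -0.42, and with replicate 2 left out of both groups it was 0.10. The deposited locus of Itga6 covers 1099 of its 9025 annotated exon bases, so that its level per kb is uncertain, and 7.59% of its transcript matches 1 place elsewhere in the genome.

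For the tested alpha subunits whose groups did not overlap, the stretch from 250 bases before to 50 bases after the start is printed from RefSeq (GRCm38.p6, a later build than the mm9 of the counts). Capitals mark the AP-1 motif TGANTCA and the SP/KLF motif GGGCGG, searched on both strands.
Itga9, chr9:118711442-118711741, plus strand: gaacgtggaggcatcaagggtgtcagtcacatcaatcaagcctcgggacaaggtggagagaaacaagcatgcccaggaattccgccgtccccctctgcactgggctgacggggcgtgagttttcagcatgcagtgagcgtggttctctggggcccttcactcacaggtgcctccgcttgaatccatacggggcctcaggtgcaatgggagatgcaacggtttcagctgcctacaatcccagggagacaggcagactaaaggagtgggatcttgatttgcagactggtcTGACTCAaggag
Itga3, downstream start, chr11:95069149-95069448, minus strand: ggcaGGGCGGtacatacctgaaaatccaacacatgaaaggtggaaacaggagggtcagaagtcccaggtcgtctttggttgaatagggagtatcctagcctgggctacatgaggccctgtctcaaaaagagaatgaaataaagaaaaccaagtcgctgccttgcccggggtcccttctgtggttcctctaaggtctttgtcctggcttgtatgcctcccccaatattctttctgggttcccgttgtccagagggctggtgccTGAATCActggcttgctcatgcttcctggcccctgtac
Itga3, upstream start, chr11:95076665-95076964, minus strand: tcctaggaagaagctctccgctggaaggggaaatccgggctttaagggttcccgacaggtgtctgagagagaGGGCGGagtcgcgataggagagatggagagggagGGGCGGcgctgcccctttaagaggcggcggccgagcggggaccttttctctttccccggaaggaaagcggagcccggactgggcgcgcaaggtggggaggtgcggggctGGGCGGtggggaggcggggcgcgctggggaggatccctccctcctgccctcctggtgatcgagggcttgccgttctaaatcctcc
Itga2b, chr11:102469834-102470133, minus strand: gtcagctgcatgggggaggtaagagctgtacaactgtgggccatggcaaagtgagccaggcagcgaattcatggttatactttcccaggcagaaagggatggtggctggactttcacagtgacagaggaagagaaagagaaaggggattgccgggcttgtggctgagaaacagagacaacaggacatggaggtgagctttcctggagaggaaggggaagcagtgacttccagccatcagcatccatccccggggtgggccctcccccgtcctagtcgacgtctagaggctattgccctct

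The AP-1 letters stood at position 38 after the start printed for Itga9 and at position 12 after the downstream start in Itga3. Whether the printed Itga9 start lies at the first exon of the gene was not checked, nor which starts these cells use. Itga2b held neither motif. Promoters were found for 25 of the 34 receptors (30 promoters). The AP-1 letters occurred in 4 of the 30 promoters, 1 each of Itga3, Itga9, Itgax and Ddr1, and in 7.81% of 32851 promoters of this length. The SP/KLF letters occurred in 17 of the 30, from 14 genes, and in 35.7% of all promoters. The receptors' promoters had a median GC content of 58.4%, against 52.7% over all promoters, and its part in the count of this GC-rich motif was not tested. The TEAD letters GGAATG occurred in 2 of the 30, those of Itga10 and Itgb1, and in 14.7% of all, and the SRF motif (CArG box) in 1, of Itgb6, and in 1.63%. A match says only that the letters are there.

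Itga2b, the alpha subunit of the platelet fibrinogen receptor, was the receptor with the largest negative change. It was at 158, 235 and 372 normalized counts in EtOH replicates 1, 2 and 3 and at 95.04, 38.5 and 135 in TAM replicates 1, 2 and 3. All TAM libraries lay below all EtOH libraries (-1.59, SE 0.51, adjusted p = 0.262, and 0.147 with the block), and leaving out 1 library gave -1.97 to -1.08. Its beta partner Itgb3 lay at 641 to 699 in EtOH and 596 to 838 in TAM (0.07, 95% interval -0.36 to 0.50). Of the 6 platelet markers Pf4 and Gp9 were at no more than 2.45 in any library and Gp6 was listed at 0, while Gp1ba (30.3 to 95.1) and Gp1bb (53.0 to 78.2) were present in all 6 libraries. The chemokine gene Ppbp was at 2.83, 52.4 and 1.62 in EtOH and 107.05, 390 and 26.9 in TAM. The list as a whole summed to 86.9 to 184 in EtOH and 163 to 508 in TAM, and its part in the level of Itga2b was not tested.

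Of the other RGD-binding subunits none differed beyond its spread. Itga5, the fibronectin receptor subunit, was at 4468, 7581 and 3094 in EtOH replicates 1, 2 and 3 and at 3066, 24416 and 4563 in TAM replicates 1, 2 and 3. The single high library was TAM replicate 2: the fold change was 0.57 (SE 0.76, adjusted p = 0.792) with it, -0.33 without it and 0.01 with replicate 2 left out of both groups. Itgb1 was also highest there, at 35908 against 17115 and 18156 in TAM replicates 1 and 3 and 15043 to 17323 in EtOH (0.50, SE 0.33, adjusted p = 0.571, and 0.15 without TAM replicate 2). Itgav, which pairs with Itgb3 and Itgb5 to bind vitronectin and latent TGF-beta, was at 2541 to 4054 in EtOH and 2633 to 3873 in TAM. Its fold change was -0.03 (95% interval -0.59 to 0.53), turning to 0.08 under library-sum scaling. Its deposited locus covers 4551 of 10744 exon bases. Itga8 was at 4518, 1054 and 1924 in EtOH and 3889, 1591 and 2854 in TAM (0.31, SE 0.55), with replicate number taking 88.8% of its sum of squares. Itgb5 was higher in TAM in each pair, at 6861, 3903 and 6624 in EtOH and 7418, 5579 and 9441 in TAM (0.38, SE 0.30, adjusted p = 0.635), but overlapped. Part of its transcript (11.3%) matches 1 place elsewhere.

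The 4 collagen-binding alpha subunits all had positive fold changes, from 0.38 to 1.61, and none was called. Itga2 was at 12.2, 81.0 and 29.1 in EtOH replicates 1, 2 and 3 and at 55.5, 147 and 111 in TAM replicates 1, 2 and 3. It was higher in TAM in each pair, but EtOH replicate 2 lay above TAM replicate 1 (1.61, SE 0.70, adjusted p = 0.379, and SE 0.35, adjusted p = 0.119 with the block). Leaving out 1 library gave 0.98 to 2.30, lowest without EtOH replicate 1. Without replicate 2 the change was 2.00 and was called with the block (adjusted p = 0.0269), and its adjusted p over all alternatives ran from 0.0269 to 0.673. Itga1, which lies 26.0 kb from Itga2 on chromosome 13, was at 429, 396 and 308 in EtOH and 535, 404 and 569 in TAM (0.41, SE 0.22, adjusted p = 0.476). Itga11, the fibroblast receptor for fibrillar collagen, was at 10453, 8001 and 6386 in EtOH and 15746, 7628 and 9906 in TAM (0.39, SE 0.32, adjusted p = 0.654). Both overlapped between groups. Itga10 was at 8.4 to 23.1 in EtOH and 17.6 to 32.8 in TAM, and its low counts are uncertain.

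The other collagen receptors are the discoidin domain kinases. Ddr1 was at 788, 764 and 836 in EtOH replicates 1, 2 and 3 and at 1109, 1001 and 1097 in TAM replicates 1, 2 and 3, without overlap. Its fold change was 0.42 (SE 0.15, adjusted p = 0.291), with the smallest standard error of the 27, and it stayed between 0.39 and 0.47 when 1 library was left out. Ddr2, at 1353 per kb in EtOH against 167 for Ddr1, was at 8937 to 13238 in EtOH and 10071 to 13626 in TAM (0.04, 95% interval -0.52 to 0.59). Its sign turned with the weighting and without replicate 2. A Gm4577 exon on the other strand overlaps 4.5% of Ddr1.

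**Figure D3:**
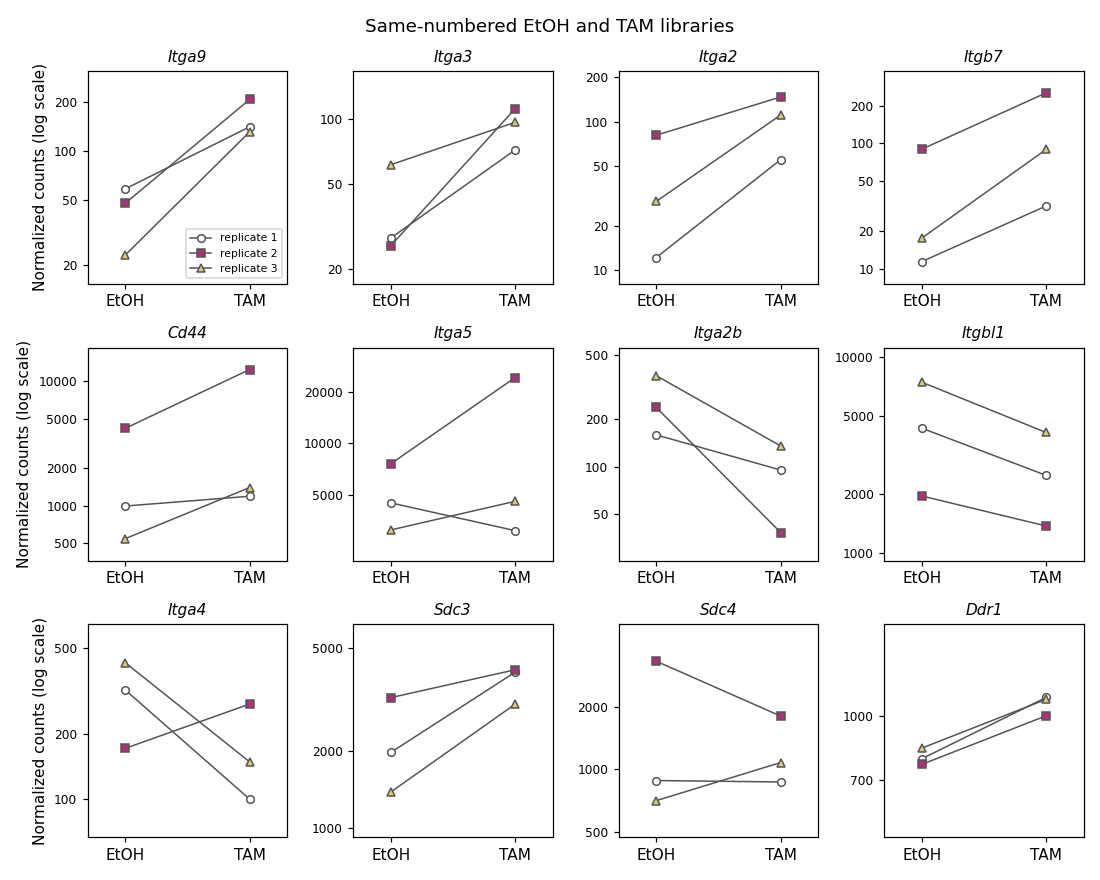
Normalized counts (y axis, log scale, a scale of its own in each panel) of 12 receptors in EtOH and TAM libraries (x axis), with lines joining libraries of the same replicate number. The 3 lines of Itga9, Itga3, Itga2, Itgb7, Cd44, Sdc3 and Ddr1 all go up and those of Itga2b and Itgbl1 all go down, while replicate 2 sits well above the others in Cd44, Itga5 and Itgb7.

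Cd44, the hyaluronan receptor, was at 996, 4195 and 545 in EtOH replicates 1, 2 and 3 and at 1194, 12461 and 1403 in TAM replicates 1, 2 and 3. Each TAM library was above the EtOH library of its number, yet replicate 2 exceeded the mean of the other replicates 5.45 times in EtOH and 9.6 times in TAM. The fold change was 1.06 (SE 1.05, adjusted p = 0.708, and SE 0.29, adjusted p = 0.174 with the block), and without TAM replicate 2 alone it was -0.02. With replicate 2 left out of both groups it was 0.81 (SE 0.31, adjusted p = 0.242, and SE 0.27, adjusted p = 0.139 with the block). Has2, the main hyaluronan synthase of fibroblasts, was at 1134, 615 and 3116 in EtOH and 97.9, 373 and 239 in TAM (-2.65, SE 0.68, adjusted p = 0.189), and all TAM libraries lay below all EtOH libraries. A Has2as exon on the other strand overlaps 4.3% of Has2.

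Itgb7, a beta subunit best known from lymphocytes, was also highest in replicate 2 of both groups. It was at 11.4, 89.7 and 17.6 in EtOH replicates 1, 2 and 3 and at 31.7, 252 and 89.3 in TAM replicates 1, 2 and 3 (1.72, SE 0.95, adjusted p = 0.494, and SE 0.32, adjusted p = 0.0827 with the block). Its change was 1.84 with replicate 2 left out of both groups and 0.98 to 2.58 when 1 library was left out, lowest without TAM replicate 2. Itgb2, the leukocyte beta subunit, was at 69.1, 28.6 and 59.4 in EtOH and 31.1, 45.2 and 17.7 in TAM (-0.73, SE 0.50, adjusted p = 0.583). It was called only with library weights (-1.50, adjusted p = 0.0488, over all alternatives 0.0488 to 0.829). Ptprc, which marks all leukocytes, was at no more than 5.01 in any library, and Emr1, Tyrobp, Cd3e and Cd3g were listed at 0. Other genes of the leukocyte list were present: Lyz2 was at 35.2 to 62.9 in EtOH and 103 to 159 in TAM and Csf1r at 73.4 to 75.7 and 90.6 to 226, both without overlap, and Cd53 reached 1731 in TAM replicate 2. Cd14 had a positive log2 fold change (1.08), while those of Cd68 (-0.59) and Aif1 (-0.26) were negative. All of Cd14, Cd68 and Aif1 overlapped between groups. Of the 6 tested genes of this list 2 were higher in TAM at an unadjusted p under 0.05, against 6.67% of all genes. The leukocyte list summed to 320.29 to 847 in EtOH and 559 to 2287 in TAM, and the T cell list to 75.6 to 129.6 and 76.2 to 118. Their part in the levels of Itgb2 and Itgb7 was not tested. Itgb4, the hemidesmosome subunit of epithelia, was at 20.9 to 24.8 in all 6 libraries (-0.05, 95% interval -0.87 to 0.77). The keratinocyte list was at 80.1 to 96.6 in EtOH and 76.4 to 135 in TAM, with Krt1 at 0.

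The 7 receptors under the filter were the leukocyte subunits Itgad, Itgae, Itgal, Itgam and Itgax and the beta subunits Itgb6 and Itgb8, none above 10.9 normalized counts in any library. Tested with no filter, their adjusted p-values ran from 0.281 (Itgam) to 0.743 (Itgb6). Itgad and Itgax share near-identical stretches, 23.1% and 20.8% of their transcripts at 95% identity or more, and their counts may not be separable.

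Among the syndecans Sdc3 had the clearest change. It was at 1972, 3220 and 1384 in EtOH replicates 1, 2 and 3 and at 4045, 4132 and 3039 in TAM replicates 1, 2 and 3, higher in each pair, with only EtOH replicate 2 reaching into the TAM range (0.84, SE 0.32, adjusted p = 0.320). Without replicate 2 the change was 1.09 and was called with the block (adjusted p = 0.0157, over all alternatives 0.0157 to 0.675). Sdc2, the most abundant syndecan per kb, was at 8054, 4374 and 11050 in EtOH and 4086, 5262 and 6375 in TAM (-0.50, SE 0.36, adjusted p = 0.600). In replicate 2 TAM was higher than EtOH and in the others lower, and without replicate 2 it was called with the block (-0.89, adjusted p = 0.0413, over all alternatives 0.0413 to 0.907). Sdc1 was at 2310, 2032 and 2407 in EtOH and 2336, 3534 and 3281 in TAM (0.42, SE 0.21, adjusted p = 0.442), and 42.8% of its transcript matches 2 other places in the genome, both on chromosome X, at 95% identity or more. Sdc4, the syndecan of focal adhesions, was at 884, 3300 and 709 in EtOH and 871, 1801 and 1079 in TAM (-0.10, 95% interval -1.47 to 1.28), and its sign turned to 0.29 without replicate 2.

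Itgbl1, a secreted protein made of integrin beta-like repeats, was at 4324, 1953 and 7414 in EtOH replicates 1, 2 and 3 and at 2487, 1373 and 4110 in TAM replicates 1, 2 and 3. It was lower in TAM in each pair by a similar amount, 0.80, 0.51 and 0.85 on the log2 scale, though the groups overlap (-0.72, SE 0.56 without the block and 0.17 with it, adjusted p = 0.629 and 0.137). Leaving out 1 library gave -1.23 (without EtOH replicate 2) to -0.27 (without EtOH replicate 3). Without replicate 2 and with the block it was called (-0.82, adjusted p = 0.0372, over all alternatives 0.0372 to 0.925).

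Across the receptors replicate number took more of the sum of squares than treatment in 17 of 27 (63.0%), against 61.3% of all genes. Replicate 2 was the highest of its group in both groups for 9 receptors and the lowest in both for 5, against 19.5% and 18.7% of all genes. The 9 were Itga2, Itga5, Itga6, Itga7, Itgav, Itgb7, Cd44, Sdc3 and Sdc4, and the 5 were Itga8, Itgb5, Itgbl1, Ddr1 and Ddr2.

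**Figure D4:**
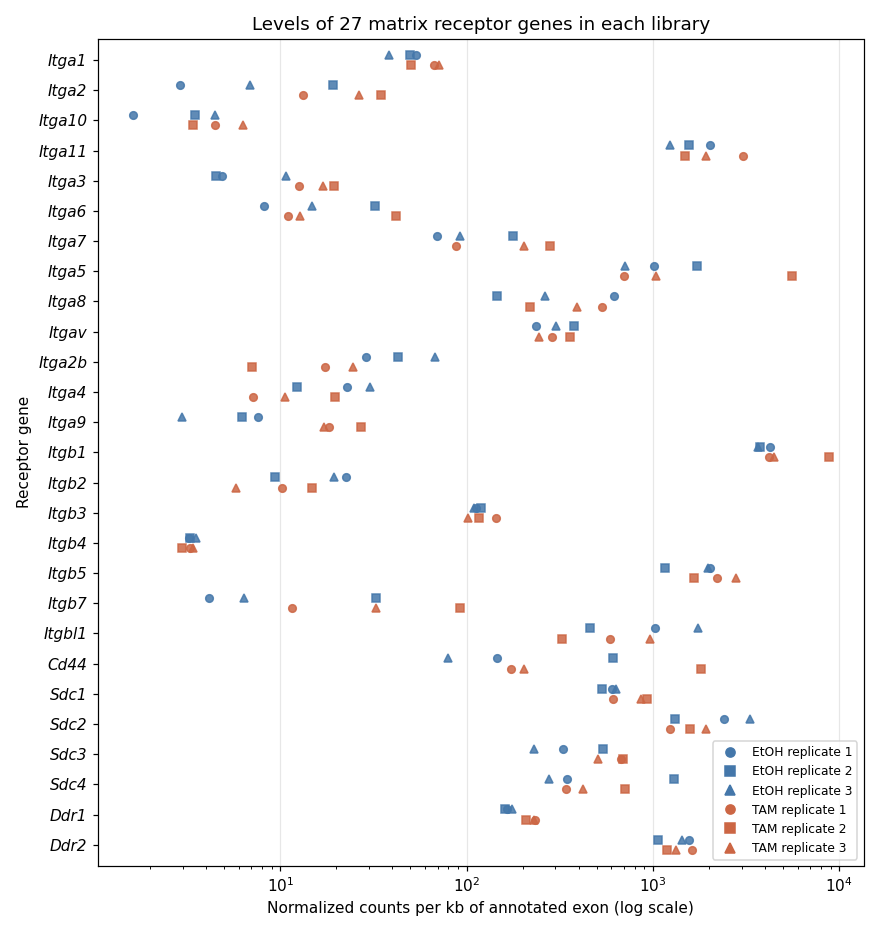
Normalized counts per kb of annotated exon (x axis, log scale) of the 27 tested receptors (y axis, grouped by role) in each library, with EtOH in blue and TAM in orange and the marker shape giving the replicate number. Itgb1, Sdc2, Itgb5, Itga11, Ddr2, Itga5 and Itgbl1 lead in EtOH, and squares (replicate 2) lie apart from circles and triangles in Cd44, Itgb7, Itga6 and Sdc4.

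Adaptor and signalling proteins join integrins to actin and relay their signals. Of 45 tested such genes (49 in the table) none was called, also with the block, and 3 (6.67%) passed an unadjusted p of 0.05, against 13.4% of all genes. These were the actin regulator Enah (1233, 1230 and 985 in EtOH, 2462, 2049 and 1530 in TAM, log2 fold change 0.79, adjusted p = 0.213), the kinase Ptk2b (0.78, adjusted p = 0.290) and the parvin Parva (0.65, adjusted p = 0.337). All 3 were higher in TAM without overlap. The list's median fold change was 0.09. Talin 1 (Tln1, 0.03), the kinase Ilk (0.23) and focal adhesion kinase (Ptk2, -0.04) overlapped between groups. Exons of Taf10 on the other strand overlap 76.7% of Ilk, and the strand setting of the counting is not stated, so the value of Ilk is uncertain.

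The ligands of these receptors are matrix proteins, cell surface proteins and the enzymes that make hyaluronan. Of 38 tested (46 in the table) none was called without the block, but 8 stood higher and 8 lower when p was left unadjusted (42.1%, against 13.4% of all genes). Without overlap 8 lay higher and 11 lower, against 9.19% and 11.4% of all genes. With the block 5 were called, against 1.62% of all genes (1.0% higher), all higher in TAM: Tnc and Spp1, the basement membrane chains Col4a1 and Col4a2, and the laminin chain Lama5. Lama5, a ligand of Itga3 and Itga6, was at 701, 467 and 176 in EtOH and 2701, 1113 and 997 in TAM (1.90, SE 0.57, adjusted p = 0.242, and 0.0481 with the block). Lama2, the laminin chain of muscle and nerve basement membranes, was at 1916, 3184 and 1647 in EtOH and 717, 542 and 616 in TAM (-1.80, SE 0.27, adjusted p = 0.0628). Icam1, a ligand of the leukocyte integrins, was at 5.17, 19.0 and 4.27 in EtOH and 56.1, 47.7 and 56.5 in TAM (2.65, SE 0.58, adjusted p = 0.147), and 19.3% of its exon bases lie opposite Mir1900. The microfibril and collagen VI genes Fbn1 (-1.04) and Col6a1 (-1.42) were lower without overlap, and Gm9913 on the other strand overlaps 20.1% of Fbn1. Col4a1 (1.60) and Col4a2 (1.71) were named after their values were seen, and the difference between ligands and receptors was not tested.

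Of 24 tested membrane partners and further matrix receptors (29 in the table) none was called without the block, and 3 (12.5%) passed an unadjusted p of 0.05, against 13.4% of all genes. The heparan sulfate glypican Gpc1 was at 1933, 1790 and 1025 in EtOH and 10979, 5693 and 5025 in TAM (2.15, SE 0.37, adjusted p = 0.0915), and it was the 1 gene of the list called with the block (adjusted p = 0.0274, against 1.62% of all genes). Cask, a scaffold that binds syndecan tails, was higher without overlap (0.65, adjusted p = 0.274), and Slc3a2, the CD98 heavy chain that binds integrin beta tails, was lower (-0.62, adjusted p = 0.334). The list's median was -0.21.

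**Figure D5:**
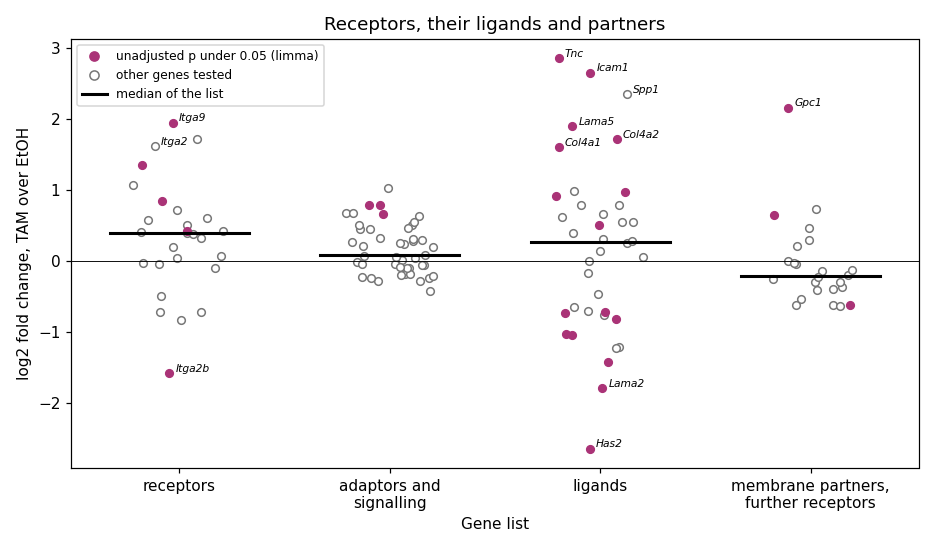
Log2 fold change, TAM over EtOH (y axis), of the tested receptors, adaptors, ligands and membrane partners (x axis), with filled points for an unadjusted limma p under 0.05 and bars for each list's median. The ligands spread widest, from Has2 at -2.65 to Tnc at 2.85, and the receptor median lies at 0.385.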

How the data were processed

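Poly(A) RNA of 6 MSF samples (EtOH 1 to 3, TAM 1 to 3) was analysed. The authors mapped reads with TopHat to mm9, counted them with HTSeq and normalized with edgeR (TMM), versions not given in the sources used here. The deposited values are a normalized count signal per gene, not whole reads, and their scaling is not stated, so no count test was run. Genes reaching 1 c.p.m. in 3 or more libraries were tested with limma 3.58.1 (R 4.3.3) on log2(value + 1) with an intensity trend and Benjamini-Hochberg adjustment, two-sided. Same-numbered libraries correlated in their deviations across genes (Pearson's r = 0.241, 0.287 and 0.422, and -0.31 to 0.037 for other numbers), so a blocked fit was also made. In simulated data for TAM against EtOH (11888 genes) same-numbered libraries shared a shift of SD 0.5 on the log2 scale, a size not estimated from these data. There the blocked fit recovered 100% of 200 changed genes and the other fit 55%, with 0.498% and 0.0% of their calls false. The shared shift is what the block removes, so its gain there was set in advance. The planted changes were large, with a median estimate of 2.02 on the log2 scale, against 1.94 for the largest receptor change. In simulated data without a shared shift (11939 genes) both fits recovered 100%. How far this carries over to the observed correlations was not tested.

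The members and gene lists were chosen with earlier results of these data known. All members were named, and from each other list up to 4 of the largest rises and 4 of the largest falls at an unadjusted p under 0.05 or an adjusted p under 0.05 in the blocked fit. Others named for context were picked after their values were seen. Positions and exon lengths came from GENCODE vM1 (NCBIM37, the same build as mm9) and near-identical copies from BLAST 2.17.0. Rpsa was not found and Synj2bp lay on 2 lines, so both were left out. Markers of Schwann cells and melanocytes summed to 80.4 to 90.4 in EtOH and 70.2 to 115 in TAM, of endothelial cells to 107 to 247 and 28.2 to 50.9, and of skeletal muscle to 46.9 to 105 and 35.2 to 1413.

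Alternatives were other pseudocounts, filters and scalings, library weights, the block, a 2-fold threshold and leaving out libraries.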

Additional observations from a re-analysis of the deposited data

How the results depend on the processing

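The count of called receptors was 0 under all alternatives but library weights (4) and the block without replicate 2 (6). The other lists had no call but for the following. With library weights 13 of 38 ligands and 1 of 24 membrane partners were called, against 6.25% of all genes. With the replicate block 5 of 38 ligands and 1 of 24 partners were called, against 1.62%. With the block and without replicate 2, 1 of 45 adaptors, 9 of 37 ligands and 3 of 24 partners were called, against 7.42%. The causes were not tested. Leaving out any 1 library gave 0 calls in each list, lowest 0 and highest 0.

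Of the receptors' log2 fold changes, Itgav turned to 0.08 under library-sum scaling and 0.01 under quantile normalization, Itgb4 to 0.05 and Sdc4 to 0.02 under library-sum scaling, and Itgb3 to -0.04, Sdc4 to 0.28 and Ddr2 to -0.09 under library weights. Without replicate 2, with or without the block, Sdc4 was 0.29 and Ddr2 -0.03. Leaving out 1 library gave -0.42 to 0.70 for Itga6, -0.33 to 1.16 for Itga5, -0.18 to 0.87 for Itga8, -0.20 to 0.14 for Itgav, -0.06 to 0.18 for Itgb3, -0.02 to 1.90 for Cd44, -0.52 to 0.59 for Sdc4 and -0.13 to 0.15 for Ddr2. Of the receptor values under other alternatives 272 kept direction and side of the threshold, 10 passed it and 11 reversed. The stricter filter left out Itga10, Itga3, Itgb2 and Itgb4, and library-sum scaling moved the median of all genes by 0.111. The block changed no other call. The unknown read depth limits the low receptors, such as Itga10 and Itgb4, most.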
